A study of Mus musculus with 28 samples.

Results

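Immediate early genes are switched on by a stimulus without new protein being made, and most of their RNAs decay quickly. The 9 genes described here were chosen by name from a list of such genes known to respond to exercise and to the handling of animals: Fos, Fosb, Jun, Junb, Egr1, Atf3, Ier2, Nr4a1 and Nr4a3. All 9 were found in each of the 3 tables, among 53801 genes with Ensembl identifiers. In muscle they rise with contraction through calcium, MAP kinase and cyclic AMP signals, and in liver they rise with injury, feeding, stress hormones and regrowth. Fos and Jun proteins pair to form AP-1, which binds DNA at sites of its own, and the other members are transcription factors or nuclear proteins that act in the same early wave.

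The samples were livers and muscles of male Lepob/Lepob mice of the C57BL/6J strain, which carry the ob mutation of Lep on both chromosomes, lack working leptin and become obese. All of them, controls included, had eaten the AMLN diet, rich in fat (40% of calories), fructose (20% of calories) and cholesterol (2% by weight), for 20 weeks from 4 weeks of age, a regimen that produces steatohepatitis. Treated mice received daily intraperitoneal injections of both aspirin (acetylsalicylate, 3.0 mg/kg, an inhibitor of prostaglandin synthesis) and trimetazidine (5.0 mg/kg, an inhibitor of fatty acid oxidation). Vehicle mice were injected with the same volume of solvent, so every mouse had been handled and injected. Each tissue had 6 treated and 6 vehicle libraries after 40 d of treatment, and 1 treated and 1 vehicle library taken 24 h after injection. The titles of the 24 h libraries do not say how many injections came before. The labels do not give the interval between the last injection and tissue collection at 40 d, the time of day, or which muscle was taken. They number the animals at 40 d, and nothing else says that libraries are separate mice, so p-values measure the spread between these libraries.

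Values are FPKM, sequenced fragments scaled to the length of the gene and the size of the library, so levels of different genes can be compared. Libraries held 16.1 to 19.9 M reads on genes. Hepatocyte markers summed to at least 21550 FPKM in each liver and skeletal muscle markers (Acta1, Ckm, Mylpf, Tnnt3 and Myh4) to at least 28840 FPKM in each muscle, so the tissues match their labels. Some features of single libraries touch what follows. In the treated liver 4_5 at 40 d the summed macrophage markers stood at 1538 FPKM, against at most 689.8 in the other treated livers, and in the vehicle muscle 3_2 at 40 d the hepatocyte gene Alb stood at 98.0 FPKM, against at most 14.2 in the other muscles at that time. These are bulk tissues, in which fewer cells of a type and less RNA per cell cannot be told apart.

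The positions below are those of the tables, in GRCm38, and match the GENCODE annotation of that build. Fos lies at chr12:85473890-85477273 on the plus strand, Fosb at chr7:19302696-19310051 on the minus strand, and Jun at chr4:95049034-95052222 on the minus strand. Junb at chr8:84974484-84978718 and Ier2 at chr8:84661331-84662852 share a chromosome and the minus strand. Atf3 is at chr1:191170296-191218039 on the minus strand. Nr4a1 at chr15:101254269-101274795 and Nr4a3 at chr4:48045153-48086447 are on the plus strand. Each value is summed over the gene's exons. Of Jun's exonic bases 7.28% are also covered by its antisense gene Junos, and of Junb's 7.52% by Prdx2, both on the other strand. No source used here says whether reads were counted by strand, so reads in those stretches cannot be assigned with certainty.

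Promoters are shown for 5 members, because Fos, Fosb and Atf3 were far apart between the muscles at 24 h, Junb between the livers at 24 h, and Jun between the livers at 40 d. The sequences are the 150 bases upstream of the RefSeq start (GRCm38.p6), 5′ to 3′ on the gene's strand. Capitals mark TGACG or its reverse complement CGTCA, the core of the cyclic AMP response element that CREB and ATF proteins bind.
Fos: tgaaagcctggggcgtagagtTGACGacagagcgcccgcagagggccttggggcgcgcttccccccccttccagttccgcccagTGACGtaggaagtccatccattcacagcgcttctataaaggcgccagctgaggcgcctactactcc
Fosb: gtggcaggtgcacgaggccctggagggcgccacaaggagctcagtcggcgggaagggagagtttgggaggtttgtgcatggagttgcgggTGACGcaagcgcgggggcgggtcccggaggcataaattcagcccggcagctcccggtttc
Atf3: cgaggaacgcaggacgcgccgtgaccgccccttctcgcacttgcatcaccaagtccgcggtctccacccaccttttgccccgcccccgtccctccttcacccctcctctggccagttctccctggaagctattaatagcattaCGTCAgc
Junb: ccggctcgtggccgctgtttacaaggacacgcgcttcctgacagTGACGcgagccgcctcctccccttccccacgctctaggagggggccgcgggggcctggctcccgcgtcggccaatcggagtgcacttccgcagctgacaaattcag
Jun: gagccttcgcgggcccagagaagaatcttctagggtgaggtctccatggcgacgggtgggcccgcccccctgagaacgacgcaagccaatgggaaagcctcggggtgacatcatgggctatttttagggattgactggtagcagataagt
The stretches are chr12:85473740-85473889 for Fos, chr7:19310046-19310195 for Fosb, chr1:191183334-191183483 for Atf3, chr8:84978749-84978898 for Junb and chr4:95052223-95052372 for Jun. The Atf3 stretch lies inside the annotated gene, upstream of the start that RefSeq gives.

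Over windows of 300 bases, from 250 before to 50 after the start, a promoter sequence was found for 7 of the 9 members. TGACG on either strand occurred in 6 of these 7 windows, compared with 20.8% of 32851 promoter windows in the RefSeq table. The exception was Jun. Fos carried TGACG with its first base 129 and 66 bases upstream of the start, Fosb 60, Junb 106 and Atf3 7 bases upstream, the last read as CGTCA. Nr4a1 and Nr4a3 held 4 each. The TATAAA box, searched on the gene's strand only, began 33 bases upstream of the start in Fos and was in 8.32% of all windows. In Junb it began at the RefSeq start. On the minus strand that start lies upstream of chr8:84978718, where the annotated gene begins, as the stretch shown runs down to chr8:84978749. GCGNGGGCG, the site of Egr1 and its relatives, was present in Fosb and Nr4a1 and in 5.55% of windows. The CArG box of serum response factor, the palindrome TGACGTCA and the AP-1 site TGACTCA or TGAGTCA were in none of the 7 windows, and in 1.63%, 1.79% and 5.2% of all windows. These were searched on both strands, and the TGACG search counts any TGACGTCA as well. A match describes letters only. Sites farther upstream, sites with variant letters and the promoters of Egr1 and Ier2 were outside the search, so no absence of such sites is read from it.

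At 40 d the members covered a wide range of levels, and the order differed between tissues. In muscle, mean FPKM over the 12 libraries ran from Nr4a1 (62.1) and Jun (54.0) through Ier2 (12.6), Junb (10.3), Fos (9.93), Atf3 (7.95) and Egr1 (6.46) to Nr4a3 (1.49) and Fosb (0.312). In liver it ran from Jun (21.4), Junb (15.2) and Ier2 (14.8) through Atf3 (8.14), Egr1 (5.10), Fos (2.84) and Nr4a1 (1.31) to Fosb (0.108) and Nr4a3 (0.0999). Neighbours in either order overlapped in their ranges over libraries, except that every muscle held more Jun (at least 42.0 FPKM) than Ier2 (at most 21.1 FPKM), and every liver more Nr4a1 (at least 0.724 FPKM) than Fosb (at most 0.248 FPKM). Nr4a1, an orphan nuclear receptor that controls glucose and fatty acid genes in muscle, averaged 47.4 times its liver level in muscle, and its relative Nr4a3 15.0 times. The ratio of muscle to liver was 3.5 for Fos, 2.88 for Fosb and 2.52 for Jun, and 0.683 for Junb. The tables of the tissues were scaled separately, so these ratios are descriptions and carry no test.

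**Figure D1:**
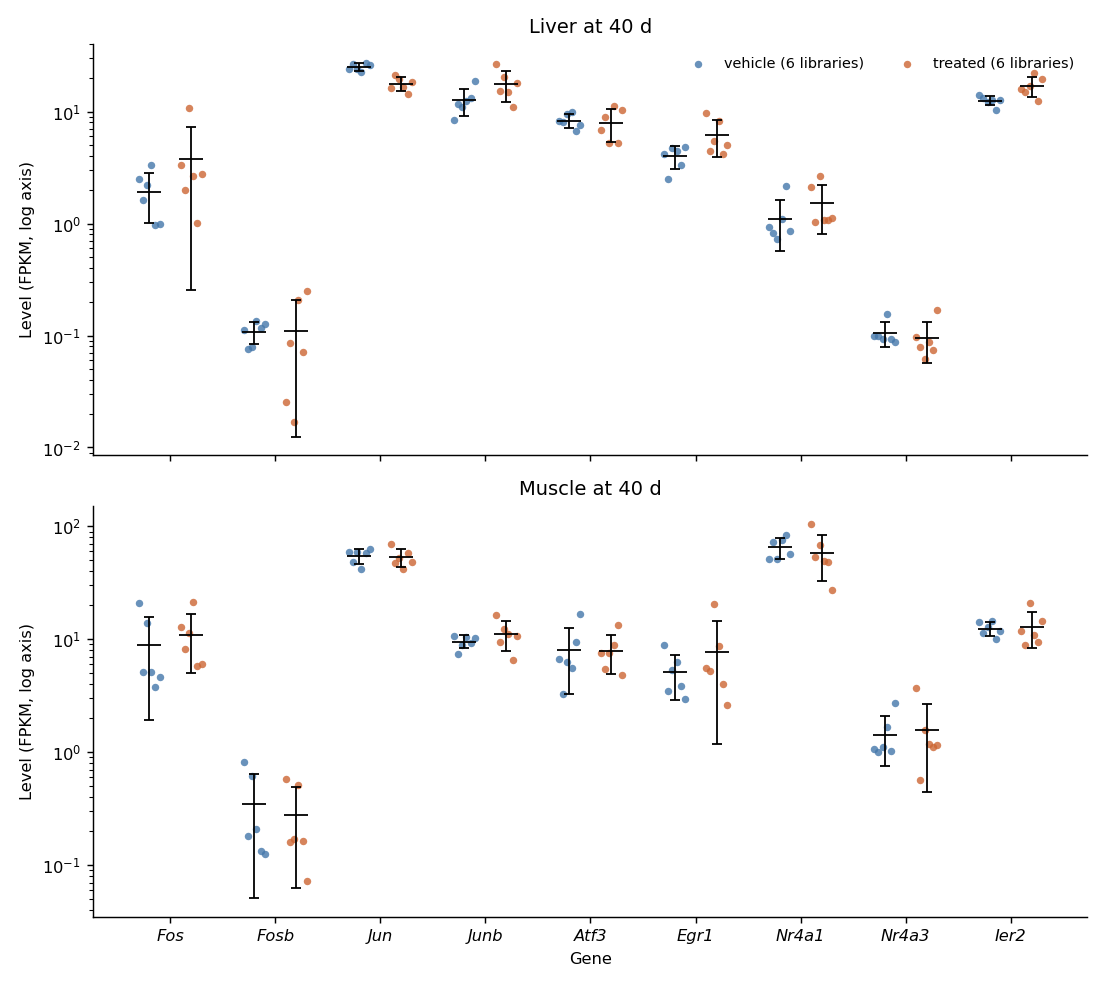
Level of each gene in every library at 40 d, in FPKM on a log axis, for liver (top) and muscle (bottom). Blue points are the 6 vehicle and orange points the 6 treated libraries of a tissue, and black lines give the mean and SD of each group. Jun in liver is the only gene whose groups are apart, with 22.4 to 27.4 FPKM in vehicle and 14.2 to 21.1 in treated livers.

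In liver at 40 d, treated against vehicle, 0 of the 7 members with enough signal to be tested passed an adjusted p of 0.05 (limma on log2(FPKM + 1), Benjamini-Hochberg over all genes), where 0.255% of 10995 genes did. At an unadjusted p under 0.05, 4 of the 7 passed, namely Jun, Ier2, Egr1 and Junb, where 13.2% of all genes tested did. The members' median difference was 0.40 on the log2 scale, beside −0.0033 for all genes tested, with 5 positive and 2 negative. Fosb and Nr4a3 were below the filter, which asked for 1 FPKM or more in 6 or more of the 12 livers.

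Jun, the AP-1 subunit that pairs with Fos proteins and that acts in hepatocyte survival and regrowth, had its 2 groups of livers apart. The vehicle livers held 22.4, 24.0, 24.1, 25.9, 26.9 and 27.4 FPKM of Jun, and the treated livers 14.2, 16.4, 16.5, 18.3, 19.7 and 21.1 FPKM. Every treated liver was below every vehicle liver, a pattern that 0.728% of all genes tested showed in this direction. No other member's groups were apart, where 0.427% of genes had every treated liver higher. The means were 25.1 ± 1.94 FPKM (SD, n = 6) and 17.7 ± 2.49 FPKM (SD, n = 6), with at least 808 reads in each library. In limma the difference was −0.49 on the log2 scale (SE 0.092, adjusted p = 0.0520), just outside the threshold. Over 18 other settings, the leaving out of each library among them, the difference lay between −0.539 and −0.432 and the adjusted p between 0.0348 and 0.159. It passed in 3 of them: voom on the recovered reads (adjusted p = 0.0455), without treated liver 5_1 (adjusted p = 0.0468) and without treated liver 5_2 (adjusted p = 0.0348).

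Junb, a partner in AP-1 that restrains Jun in several cell types, went the other way in its mean. It ranged from 8.43 to 18.9 FPKM in vehicle livers (median 12.04) and from 11.04 to 26.9 FPKM in treated ones (median 16.5), and the groups overlapped. The difference was 0.45 on the log2 scale (SE 0.20, adjusted p = 0.352 in limma). The highest value, 26.9 FPKM, was in the treated liver 4_5, and without it the difference was 0.325.

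Ier2, a nuclear protein of the early response, ranged from 10.4 to 14.0 FPKM in vehicle livers (median 12.7) and from 12.5 to 22.2 FPKM in treated ones (median 16.5). Of the treated livers, 5 of 6 were above the highest vehicle liver. The difference was 0.40 on the log2 scale (SE 0.12, adjusted p = 0.184 in limma).

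Egr1, at chr18:34859823-34864984 on the plus strand, codes for a zinc finger factor induced by growth signals and injury. It ranged from 2.51 to 4.79 FPKM in vehicle livers (median 4.299) and from 4.21 to 9.76 FPKM in treated ones (median 5.27). The groups overlapped, and the difference was 0.49 on the log2 scale (SE 0.19, adjusted p = 0.281 in limma). The highest liver was again the treated 4_5, and without it the difference was 0.367.

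Fos, the partner of Jun in AP-1, ranged from 0.973 to 3.31 FPKM in vehicle livers (median 1.91). In treated livers it ranged from 1.02 to 10.7 FPKM (median 2.70), and the next highest after 10.7, in liver 5_2, was 3.35. The difference was 0.51 (SE 0.34, adjusted p = 0.548 in limma) and 0.207 without that liver. Atf3, a stress-induced factor that mostly represses transcription, had means of 8.32 ± 1.19 FPKM (SD, n = 6) in vehicle and 7.96 ± 2.56 FPKM (SD, n = 6) in treated livers, a difference of −0.098 (SE 0.17, adjusted p = 0.839 in limma). Nr4a1 stood at 1.10 ± 0.529 FPKM and 1.52 ± 0.708 FPKM (SD, n = 6 each), with a difference of 0.25 (SE 0.18, adjusted p = 0.572 in limma). Fosb was at 0.0171 to 0.248 FPKM, that is 2 to 29 reads per library, and Nr4a3 at 0.0622 to 0.170 FPKM, that is 7 to 19 reads, and neither was tested in liver.

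Of the other features of these livers given here, only the summed neutrophil markers had the treated and vehicle groups apart. The 7 neutrophil markers summed to 12.2 to 18.6 FPKM in vehicle and 31.8 to 470.2 FPKM in treated livers, highest in 4_5. Of the 4 that could be tested 1, S100a9, was called higher (adjusted p = 0.0449 in limma), where 0.255% of all genes were called in either direction. The 7 macrophage markers summed to 491.0 to 548.3 FPKM in vehicle and 491.3 to 1538 FPKM in treated livers, and 0 of 7 were called. The 5 red cell markers summed to 374.9 to 1568 FPKM in vehicle and 503.3 to 2551 FPKM in treated livers. Mitochondrial genes took 4.37% to 6.54% of reads in vehicle and 3.73% to 4.41% in treated livers. Their part in the members' values was not tested.

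In muscle at 40 d no member differed between the groups beyond the spread of the libraries. Of the 8 members tested, 0 passed the adjusted threshold in limma and 0 in voom on the recovered reads, where 0 of 11708 genes (0%) passed in limma. At an unadjusted p under 0.05, 0 of 8 passed, where 3.85% of all genes did. No member's groups were apart, where 0.171% of genes had every treated muscle lower and 0.0854% every treated muscle higher. The members' median difference was 0.047 on the log2 scale, beside −0.0036 for all genes tested.

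Of the AP-1 genes, Fos varied several-fold within both groups. Vehicle muscles held 3.76, 4.62, 5.10, 5.11, 14.0 and 20.8 FPKM of Fos, and treated muscles 5.79, 5.99, 8.12, 11.3, 12.9 and 21.6 FPKM. Each group had low and high muscles, and the highest was 5.54 times the lowest among vehicle muscles and 3.72 times among treated muscles. The difference was 0.39 on the log2 scale (SE 0.40, adjusted p = 0.999 in limma). Fosb, whose protein and its stable short form are linked to repeated stimulation, was low throughout, at 0.127 to 0.824 FPKM in vehicle and 0.0722 to 0.578 FPKM in treated muscles, and fell below the filter. The vehicle muscles 2_1 and 2_4 were the highest of their group for both Fos and Fosb. Jun had the smallest SD of log2(FPKM + 1) around the group means of the 8 tested members. Jun did not have the smallest among vehicle muscles alone, where Junb and Ier2 had smaller ones. It stood at 54.9 ± 8.15 FPKM (SD, n = 6) in vehicle and 53.0 ± 9.66 FPKM (SD, n = 6) in treated muscles, a difference of −0.054 (SE 0.13, adjusted p = 0.999 in limma). Junb stood at 9.56 ± 1.24 FPKM (SD, n = 6) and 11.1 ± 3.28 FPKM (SD, n = 6), a difference of 0.16 (SE 0.16, adjusted p = 0.999 in limma).

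The other early factors were likewise uneven between muscles. Egr1 ranged from 2.98 to 8.86 FPKM in vehicle (median 4.58) and from 2.63 to 20.6 FPKM in treated muscles (median 5.42). Its highest treated muscle, 5_2, was followed by one at 8.67, and the difference of 0.34 (SE 0.36, adjusted p = 0.999 in limma) became 0.023 without it. Atf3 ranged from 3.25 to 16.8 FPKM in vehicle and from 4.84 to 13.3 FPKM in treated muscles, with medians of 6.48 and 7.54 FPKM and a difference of 0.070 (SE 0.30, adjusted p = 0.999 in limma). Nr4a1 stood at 65.4 ± 13.7 FPKM (SD, n = 6) in vehicle and 58.7 ± 25.9 FPKM (SD, n = 6) in treated muscles, where it ran from 27.5 to 104.4 FPKM. Its difference was −0.24 (SE 0.25, adjusted p = 0.999 in limma). Nr4a3 had medians of 1.09 FPKM in vehicle and 1.18 FPKM in treated muscles, with 1 treated muscle, 4_5, at 3.73 FPKM. Its difference of 0.024 was negative with a pseudocount of 0.1, on the recovered reads and without that muscle (−0.171). Ier2 had means of 12.4 ± 1.70 FPKM and 12.8 ± 4.54 FPKM (SD, n = 6 each), and its difference of −0.0040 was positive when libraries were scaled to their totals (0.0196).

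**Figure D2:**
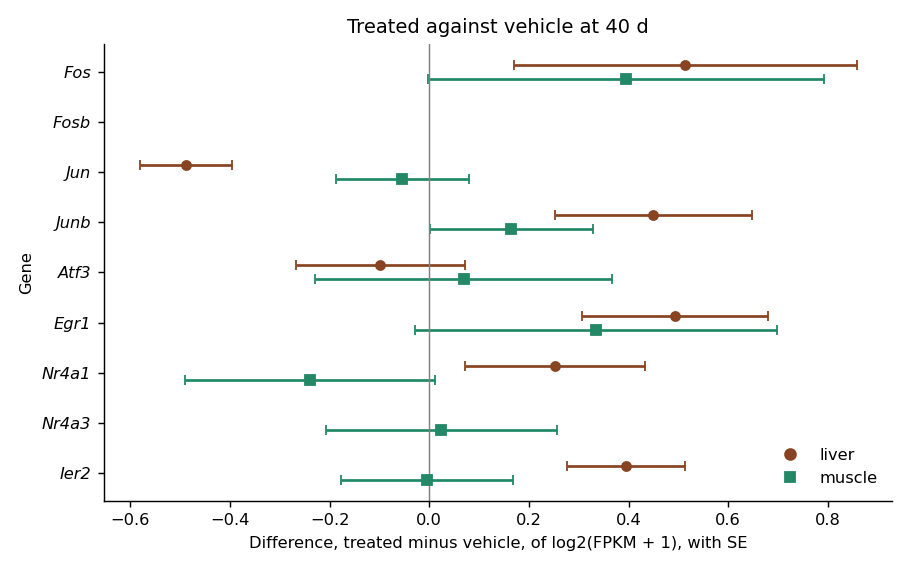
Difference between treated and vehicle groups at 40 d for each tested gene, as log2(FPKM + 1) with its SE from limma, for liver (brown circles) and muscle (green squares). Jun in liver lies at −0.49 and is the lowest point, while the muscle errors of Fos and Egr1 are the widest in that tissue. Fosb was tested in neither tissue and Nr4a3 in muscle only.

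Whether the drug effect differed between the tissues was tested in a fit of all 24 libraries at 40 d, which joins the separately scaled tables of liver and muscle. None of the 7 members tested in both tissues passed the adjusted threshold in limma, where 1 of 9436 genes (0.0106%) did. At an unadjusted p under 0.05, 1 of the 7 passed, Jun, where 5.21% of all genes did. Its difference in liver minus that in muscle was −0.43 on the log2 scale (SE 0.16, adjusted p = 0.759). Ier2 was next, at 0.40 (SE 0.22, adjusted p = 0.986).

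The spread within groups was large for most members. The SD of log2(FPKM + 1) around the group means was 0.789 for Fos in muscle, larger than in 99.0% of the genes tested there, compared with a median of 0.194. Egr1 stood at the 98.6 percentile of that spread, Atf3 at 97.2, Nr4a1 at 94.8 and Nr4a3 at 93.5. Ier2 (83.2) and Junb (80.4) followed, and Jun, at 64.7, was nearest to the typical gene. Among the 501 muscle genes nearest in level, Jun stood lower, at 45.9, and the other tested members at 80.8 (Junb) or more. In liver Fos again led at the 98.2 percentile, with an SD of 0.678 against a median of 0.173. Junb (89.9), Egr1 (88.5), Nr4a1 (87.3) and Atf3 (85.3) came next, then Ier2 (65.9), and Jun at 42.4 varied less than the median gene.

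The spread was also compared between treated and vehicle groups, as limma on the absolute deviation from the group median. With this measure no member passed in either tissue, at the adjusted or at the unadjusted threshold. Over all genes 0 (0%) passed adjusted in either tissue, and 4.47% in liver and 1.52% in muscle passed unadjusted. On this scale the largest member difference was 0.22, that of Atf3 in liver (unadjusted p = 0.0674, adjusted p = 0.913 in limma), with an SD of 0.186 in vehicle and 0.423 in treated livers. The gap in SD was larger for Fos in liver (0.452 and 0.845) and for Egr1 (0.491 and 0.895), Nr4a1 (0.299 and 0.620) and Ier2 (0.185 and 0.428) in muscle. It ran the other way in muscle for Fos (0.897 and 0.664) and Atf3 (0.693 and 0.462). With deviations taken from the group mean, 1 of the 7 members passed unadjusted in liver, Atf3 (unadjusted p = 0.0379, adjusted p = 0.383 in limma), where 11.9% of all genes did, and 0 of 8 in muscle, where 5.98% did.

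**Figure D3:**
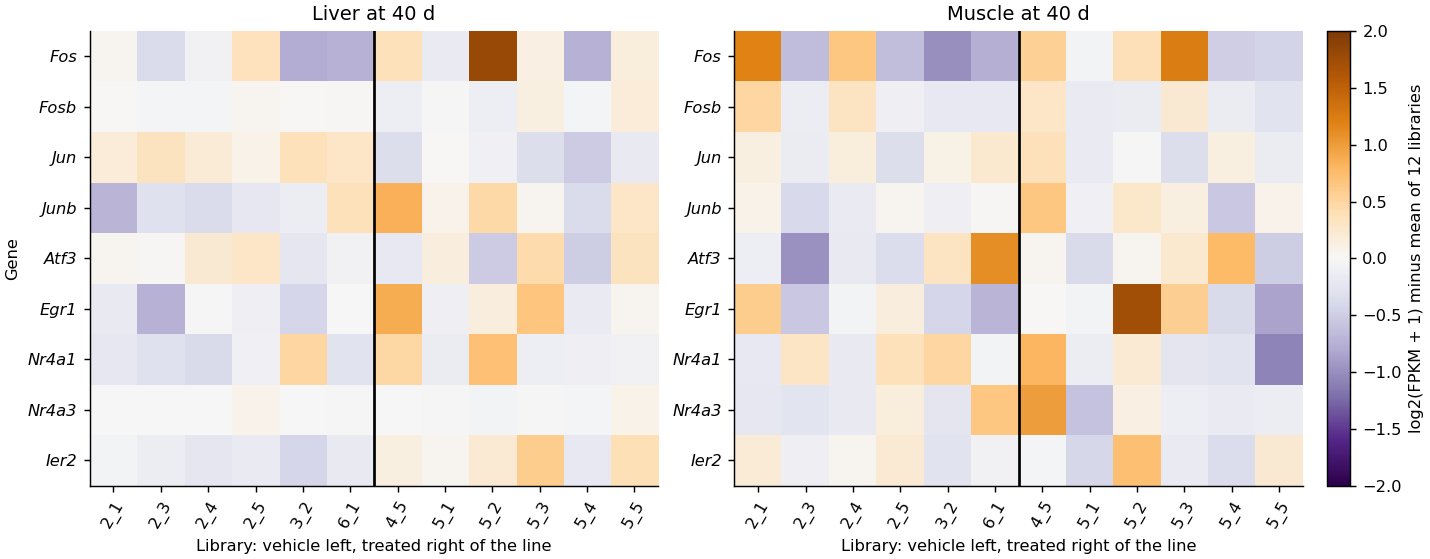
Each gene in each library at 40 d, as log2(FPKM + 1) minus the gene's mean over the 12 libraries of that tissue, with vehicle libraries left and treated libraries right of the black line. Orange is above and purple below the mean. The row of Jun in liver is orange in vehicle and mostly purple in treated libraries, while in muscle the high cells fall in different libraries for different genes.

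No library was high for all members. Of the 9 genes in muscle, the treated 4_5 was the highest of the 12 libraries for 4 (Jun, Junb, Nr4a1 and Nr4a3), the treated 5_2 for 2 (Egr1 and Ier2), and the treated 5_3, the vehicle 2_1 and the vehicle 6_1 for 1 each (Fos, Fosb and Atf3). In liver 4_5 was highest for Junb and Egr1, 5_2 for Fos and Nr4a1, 5_3 for Atf3 and Ier2, 5_5 for Fosb and Nr4a3, all of them treated, and the vehicle 3_2 for Jun. The muscle 4_5 also had the highest summed neutrophil markers (60.91 FPKM) and macrophage markers (166.6 FPKM) of the 12 muscles. The treated muscle 5_5 was next in both (37.87 and 153.2 FPKM), yet it was the lowest of the 12 for Fosb, Egr1 and Nr4a1. The part of these cells in the members' values was not tested.

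After the group means were taken off, the genes most like the members' mean score over 12 muscles (8 members in the score) were Smap2 (Pearson r = 0.899), Atg14 (0.894), Ddi2 (0.868), Pdp2 (0.867) and AU019823 (0.847). Over 12 livers (7 members in the score) they were Tmem159 (r = 0.832), Sap30 (0.826), Pdgfb (0.809), Slc35b3 (0.808) and Ikbip (0.804). The members themselves correlated with a mean to which each of them contributes by 0.347 (Atf3) to 0.782 (Junb) in muscle and by 0.327 (Atf3) to 0.672 (Junb) in liver. These are the highest of all genes tested over 12 libraries that share depth and scaling, and they are given as descriptions.

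At 24 h, with 1 library per group and so no test, the muscles were far apart in 4 of the 9 members. These 4, Fos, Fosb, Atf3 and Egr1, were past 2-fold higher in the treated muscle on the log2(FPKM + 1) scale, where 2.45% of 12262 genes were, and 0 were past 2-fold lower, where 1.23% of genes were. Fosb was below 1 FPKM in the vehicle muscle and entered the count only through its treated value, so it is described and not counted as support. Of the other 8 members, 3 were past 2-fold. Intervals below are exact 95% intervals of the ratio of FPKM from the reads, and they cover counting error only, not the difference between mice.

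Fos stood at 5.56 FPKM in the vehicle and 38.1 FPKM in the treated muscle (206 and 1345 reads), a ratio of 6.86 (5.92 to 7.98). Fosb stood at 0.376 and 5.89 FPKM (37 and 552 reads), a ratio of 15.7 (11.2 to 22.5). Atf3 stood at 6.04 and 40.4 FPKM (205 and 1306 reads), a ratio of 6.69 (5.77 to 7.79). In the treated muscle these 3 genes were above every one of the 12 muscles at 40 d, whose highest values were 21.6, 0.824 and 16.8 FPKM. Egr1 stood at 2.99 and 14.4 FPKM (211 and 969 reads), a ratio of 4.82 (4.15 to 5.62), and the treated value lay within the range at 40 d, which reached 20.6 FPKM.

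The other members differed less. Nr4a3 stood at 1.59 and 2.87 FPKM, a ratio of 1.81 (1.47 to 2.22), and Junb at 14.0 and 22.5 FPKM, a ratio of 1.61 (1.44 to 1.80). Ier2 stood at 12.8 and 17.6 FPKM, a ratio of 1.37 (1.18 to 1.59), and Nr4a1 at 104.2 and 131.4 FPKM, a ratio of 1.26 (1.22 to 1.31). Jun stood at 61.0 and 56.6 FPKM, a ratio of 0.928 (0.881 to 0.978), and its log2 ratio of −0.11 was 0.0022 when libraries were scaled to their totals. Junb and Nr4a1 in the treated muscle were above all muscles at 40 d, while Jun, Ier2 and Nr4a3 were within their range. The vehicle muscle lay within the 40 d range for all 9 members. The 6 members with TGACG in their promoter window had ratios from 1.26 (Nr4a1, with 4 of them) to 15.7 (Fosb, with 1), and the promoters printed above were chosen for their differences in level, so no relation is read from them.

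**Figure D4:**
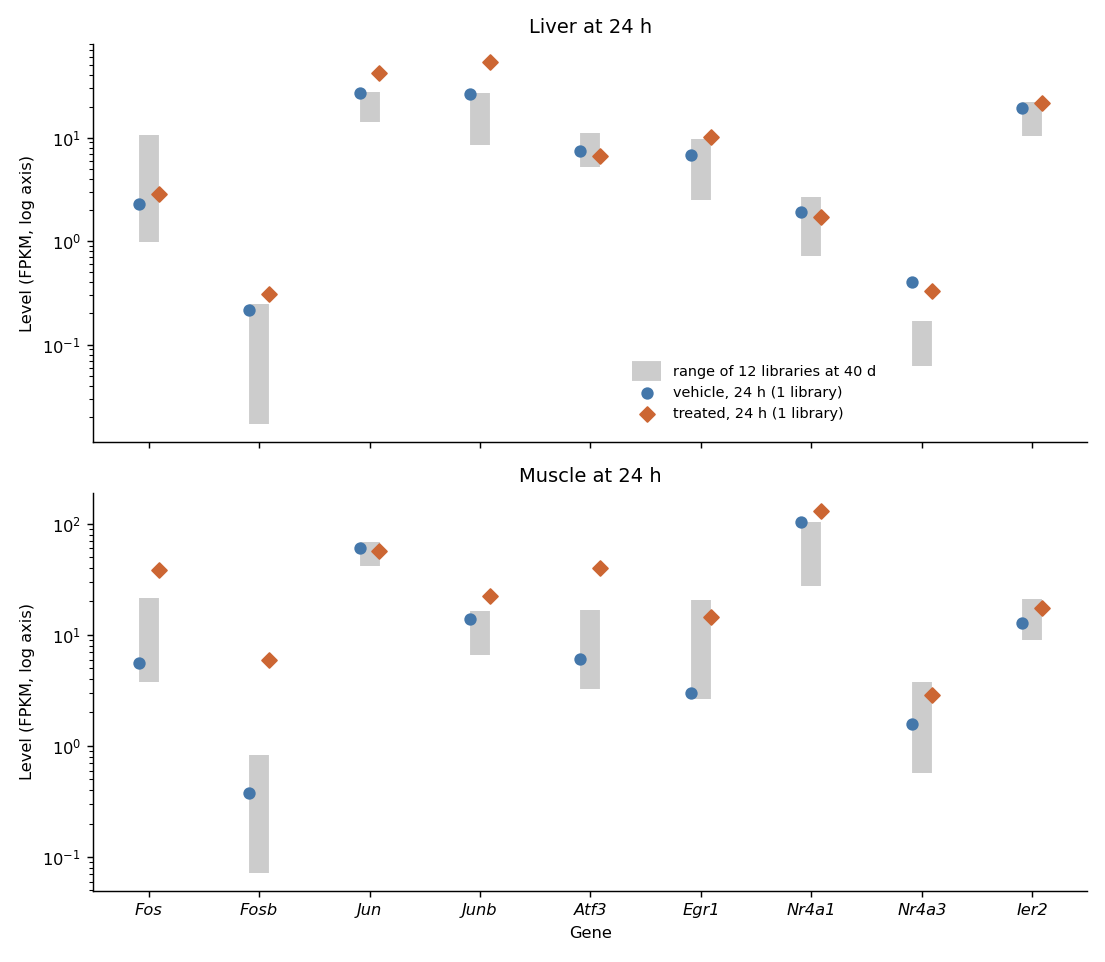
Level of each gene in the vehicle (blue circle) and treated (orange diamond) library at 24 h, in FPKM on a log axis, over the range of the 12 libraries at 40 d of the same tissue (grey bar). In muscle the treated library is above the grey bar for Fos, Fosb, Junb, Atf3 and Nr4a1, and in liver for Fosb, Jun, Junb, Egr1 and Nr4a3, of which Nr4a3 is above it in the vehicle library too. The tables of the 2 times were scaled separately, and each point is 1 library. In liver the places of Fosb and Egr1 above the bar depend on that scaling. Their reads in the treated library were 27 and 636, against up to 29 and 828 at 40 d.

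Genes outside the members also separated the 24 h muscles. Of 15 exercise responsive muscle genes whose 2 libraries averaged 1 FPKM or more, 6 were past 2-fold higher and 0 lower, beside the 2.45% and 1.23% of all genes. The 4 of them past 4-fold were Csrp3 and Ankrd1, stretch-responsive muscle proteins, Xirp1, which marks damaged sarcomeres, and the small heat shock protein gene Hspb7. Csrp3 stood at 6.58 FPKM in the vehicle and 77.0 in the treated muscle, Ankrd1 at 10.3 and 53.2, Xirp1 at 24.4 and 107.2, and Hspb7 at 76.7 and 336.5 FPKM. For Csrp3, Xirp1 and Hspb7 the vehicle muscle was below all 12 muscles at 40 d, whose lowest values were 24.2, 29.8 and 152.4 FPKM. The treated muscle was within the 40 d range for Csrp3 (at most 86.6 FPKM) and Hspb7 (at most 442.6 FPKM), and above it for Xirp1 (at most 70.7 FPKM). For Ankrd1 both were above the highest muscle at 40 d (7.69 FPKM).

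The 2-fold counts that follow are on the log2(FPKM + 1) scale, where 2.45% of all genes were higher and 1.23% lower. The 4-fold calls are ratios of FPKM. Of 10 cytosolic heat shock genes, 3 were past 2-fold higher in the treated muscle and 0 lower, and the stress-induced chaperone Hspa1a passed 4-fold, at 2.63 and 11.8 FPKM. Of 31 other rapid response genes 3, Arc among them, were past 2-fold higher and 0 lower. Arc, known from active neurons, passed 4-fold at 0.374 and 2.20 FPKM. Arc reached the mean of 1 FPKM only through its treated value, so it too is described and not counted as support. Among the other lists 0 of 8 AP-1 subunits, 0 of 3 EGR and NR4A relatives or corepressors, 0 of 11 phosphatases and feedback regulators and 0 of 21 upstream kinases and factors were past 2-fold in either direction on the log2(FPKM + 1) scale. As ratios of FPKM, Maff (2.06) and Dusp2 (2.86) of these lists were past 2-fold. So were Plk3 (2.12) of the rapid response genes and, lower, Mstn (0.497) of the exercise genes. Dusp2 reached the mean of 1 FPKM only through its treated value. Of 14 glucocorticoid responsive genes 3 were past 2-fold higher (Mt1, Mt2 and Pck1), while only 7 of the 14 were higher at all. The 1 past 2-fold lower was the hepatocyte enzyme gene Tat (74 and 3 reads). Tat reached the mean of 1 FPKM only through its vehicle value.

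Cell markers differed between these 2 muscles too. The 5 hepatocyte markers summed to 119.5 FPKM in the vehicle and 17.93 FPKM in the treated muscle. Among them Alb stood at 66.7 and 5.32 FPKM, and Ttr at 15.5 FPKM and at 0. The 5 adipocyte markers summed to 1206 and 2336 FPKM, where the muscles at 40 d reached 1205 FPKM, and the 5 skeletal muscle markers to 46860 and 28840 FPKM, where the lowest muscle at 40 d had 34620 FPKM. Mitochondrial genes took 6.94% and 10.97% of reads. The part of these differences in the members' values was not tested, and with 1 library per group treatment, mouse and dissection cannot be told apart.

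At 24 h in liver Junb, Jun and Egr1 had the largest ratios, and Junb and Egr1 were higher in the treated muscle too. Junb alone was past 2-fold higher in the treated liver (1 of the 7 members that averaged 1 FPKM or more, where 0.971% of 12353 genes were), and 0 were past 2-fold lower (0.971% of genes). It stood at 26.2 FPKM in the vehicle and 53.7 FPKM in the treated liver (976 and 1742 reads), a ratio of 2.05 (1.90 to 2.22). Jun stood at 27.1 and 42.1 FPKM, a ratio of 1.55 (1.45 to 1.66), and Egr1 at 6.86 and 10.1 FPKM, a ratio of 1.47 (1.30 to 1.65). In the treated liver these 3 were above all 12 livers at 40 d in FPKM, of which the highest held 26.9, 27.4 and 9.76 FPKM. For Egr1 that rank depends on the separate scaling of the tables. The treated liver at 24 h held 636 Egr1 reads among 16.956 M reads on genes. The treated liver 4_5 at 40 d held 828 among 17.983 M. The vehicle liver at 24 h lay within the 40 d range for all 3 genes, near its top for Junb and Jun.

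The intervals of the other 6 liver members included 1. Fos stood at 2.28 and 2.87 FPKM, Fosb at 0.217 and 0.307, Atf3 at 7.36 and 6.66, Ier2 at 19.2 and 21.4, Nr4a1 at 1.92 and 1.72, and Nr4a3 at 0.402 and 0.332 FPKM. So Fos, Fosb and Atf3, which were far apart in muscle, had ratios in liver that counting error alone can span. With 1 library per group that difference between tissues was not tested. Scaling the libraries to their totals moved the median log2 ratio of all genes in liver by −0.15, to −0.103. Under it Junb was at 0.84, no longer past 2-fold, Jun at 0.45 and Egr1 at 0.34, while the ratio of Ier2 turned from 0.15 to −0.013. The share of higher genes among those past 2-fold was 50% as deposited and 37.9% under that scaling.

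Jun thus lay on opposite sides in the livers of the 2 times, lower in the treated group at 40 d and higher in the treated library at 24 h, while Junb and Egr1 had the higher mean or value in treated livers at both. The change of direction was not tested, since 24 h has no replicates.

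Around the members, other rapid response genes in the 24 h livers also stood apart. Of 30 genes in that list that averaged 1 FPKM or more, 5 were past 2-fold higher and 0 lower, beside 0.971% of all genes in each direction, and Nfil3, a repressor tied to the clock and to cytokine signals, passed 4-fold at 4.51 and 19.2 FPKM. Its vehicle value was below every liver at 40 d (at least 4.86 FPKM), and its treated value was within their range. Of 14 glucocorticoid responsive genes 2 were past 2-fold higher, and the metallothionein gene Mt2 passed 4-fold at 4.72 and 46.4 FPKM. None of the exercise list (11 genes), the heat shock list (9), the phosphatases (12), the AP-1 subunits (8), the EGR and NR4A relatives (2) and the upstream factors (20) was past 2-fold. These 2-fold counts are on the log2(FPKM + 1) scale, while the 4-fold calls are ratios of FPKM. As a ratio of FPKM the phosphatase gene Dusp8 stood at 2.48 (1.80 to 3.45), and Klf2 of the rapid response list at 0.496. Dusp8 reached the mean of 1 FPKM only through its treated value. The 5 red cell markers summed to 647.0 FPKM in the vehicle and 337.9 FPKM in the treated liver, and the part of blood in these values was not tested.

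At 40 d no gene of the 8 lists around the members passed the adjusted threshold in limma in either tissue, and voom on the recovered reads called 0 as well. In liver 1 list gene, Socs3, passed it without treated 5_2. The list genes under an unadjusted p of 0.05 in liver are given as values, to be read against the 13.2% of all genes there. The counts of 5 of 29, 2 of 14 and 2 of 20 are near that share and are no result about those lists. Of 7 other AP-1 subunits 3 did, with Maff, a small MAF protein, at 4.93 ± 1.31 and 3.14 ± 0.900 FPKM (SD, n = 6 each; difference −0.52, SE 0.17, adjusted p = 0.207 in limma), Batf3 at a difference of 0.43 and Mafk at −0.27. Of 2 tested EGR and NR4A relatives and corepressors 1 did, the EGR corepressor Nab2, at a difference of 0.32, and Nab1 was at −0.086. Of 29 other rapid response genes 5 did. They were led by Socs3, the feedback inhibitor of STAT3 signalling, at 2.90 ± 0.418 and 6.76 ± 3.27 FPKM (SD, n = 6 each; difference 0.91, SE 0.20, adjusted p = 0.107 in limma), with Plk2 at −0.33 and Cebpd at 0.51.

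Of 9 dual specificity phosphatases and feedback regulators in liver, 2 passed an unadjusted p of 0.05, beside 13.2% of all genes, and the smallest p values were those of Dusp8 (difference −0.37), Dusp16 (−0.21) and Dusp10 (−0.28). Of 20 upstream kinases and factors 2 did, no more than that share, the JNK kinase gene Mapk9 (−0.17) and Srf (0.21), with Mkl2 (−0.19) next. Of 7 exercise responsive genes 2 did, Pdk4 (−0.64) and Hk2 (−0.31), with Angptl4 (−0.51) next. Of 14 glucocorticoid responsive genes 2 did, the metallothioneins Mt1 (1.68) and Mt2 (0.99), with Ddit4 (0.51) next. Of 9 heat shock genes 0 did, and Hspb1 (−0.29), Dnajb1 (0.14) and Hspa1b (0.28) had the smallest p values. All of these had adjusted p values of at least 0.146.

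In muscle at 40 d unadjusted p values under 0.05, reached by 3.85% of all genes, were those of 1 of 30 other rapid response genes, Hbegf (−0.40), with Klf2 (0.39) and Ier3 (0.24) next, and of 2 of 15 exercise responsive genes. These were Myog, the differentiation factor of muscle cells, at 6.44 ± 1.04 and 11.6 ± 3.67 FPKM (SD, n = 6 each; difference 0.72, SE 0.17, adjusted p = 0.778 in limma), and Rrad (0.40), with Ppargc1a (−0.28) next. None of the tested AP-1 subunits (7, led by Jdp2, Fosl2 and Jund), EGR and NR4A relatives (2, Nab2 and Nab1), phosphatases and feedback regulators (10, led by Spry1, Dusp10 and Dusp1), upstream factors (21, led by Mef2c, Crtc2 and Mapk9), glucocorticoid responsive genes (13, led by Klf15, Klf9 and Tsc22d3) or heat shock genes (10, led by Hsph1, Hspa1b and Hsp90aa1) did. The 4 exercise genes that separated the muscles at 24 h had differences of 0.062 (Hspb7) to 0.28 (Ankrd1) at 40 d.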

How the data were processed

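RNA from liver and muscle was extracted with Trizol and sequenced from NEBNext Ultra libraries, per the labels' protocols. The authors deposited 3 tables of FPKM values, per the file headers, for liver at 40 d, muscle at 40 d and both tissues at 24 h, with 28 libraries in all. The submitters' processing notes name the builds GRCm38 and mm10. No source used here names the aligner or the counter, or says whether strand was used. FPKM times gene length gave whole multiples of 1 read for 100% of the values (tolerance 0.01), so reads per gene were recovered. The tables were normalized separately, and tests were made within a table, except that of the difference between tissues, which joins the liver and muscle tables at 40 d.

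Treated and vehicle groups at 40 d (6 against 6 per tissue) were compared on log2(FPKM + 1), the log2 scale being computed here from the deposited FPKM, by limma with a mean-variance trend (limma 3.58.1, R 4.3.3), two-sided, with Benjamini-Hochberg adjustment over all genes that reached 1 FPKM or more in 6 or more of 12 libraries, and a threshold of 0.05. Differences between tissues used all 24 libraries, and spread was tested on absolute deviations from the group median. A fold on that scale understates the change of low genes. At 24 h, with 1 library per group, ratios are given with exact 95% intervals from the reads (Clopper-Pearson). Voom on the recovered reads, a pseudocount of 0.1, other filters, robust moderation, scaling to library totals, and the leaving out of each library were tried as alternatives. The fits were also run on simulated data. Their power is not given here, so a lack of calls is not read as a lack of change. Python 3.11.15 made the tables and figures.

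The members, the lists around them and the tests were chosen with earlier results of these data known. Genes named are the 9 members, per list those past the threshold or otherwise the 3 with the smallest p, per tissue the 5 genes most correlated with the members' mean z-score (predicted-gene symbols left out), and at 24 h list genes past 4-fold as a ratio of FPKM that averaged 1 FPKM or more. The scale of that ratio was settled after the values were seen. Promoters, from RefSeq (GRCm38.p6), were matched by symbol for 7 of the 9 members.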

Additional observations from a re-analysis of the deposited data

Results flagged for a closer look

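In 6 of 36 groups of 6 libraries (9 genes, 4 groups each at 40 d) the highest library was separated from the rest by more than Dixon's 95% limit for 6 samples allows. That limit flags about 1 in 20 groups by chance where values are independent and normally distributed. It was applied to FPKM without a log, and the genes share their libraries, so 6 of 36 cannot be read against that rate. In the treated muscle 5_2 Egr1 stood at 20.64 FPKM, with the next muscle of the group at 8.669. In the treated muscle 4_5 Nr4a3 stood at 3.732 FPKM, with the next at 1.584. In the treated liver 5_2 Fos stood at 10.68 FPKM, with the next at 3.348. In the vehicle liver 3_2 Nr4a1 stood at 2.148 FPKM, with the next at 1.102. Nr4a3 in liver set apart the treated 5_5 (0.1696 FPKM) and the vehicle 2_5 (0.1571 FPKM), at 19 and 18 reads. Of the 6, library number 5_2 holds 2, 1 in each tissue, and the genes differ.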

How the results depend on the processing

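The call of Jun in liver at 40 d depended on the setting, with 1 member called under voom on the recovered reads and 0 in the fit as reported. Genes called among all tested in liver numbered 28, and 0 with no filter on low values. In muscle 1 gene was called with libraries scaled to their totals, against 0. At 24 h the genes past 2-fold went from 240 to 410 in liver and from 451 to 720 in muscle with a pseudocount of 0.1, while scaling to totals left 0 members past 2-fold in liver, against 1. The cause was not tested. Leaving out each library in turn gave 0 to 83 genes called in liver, 0 to 1 in muscle and 0 to 2 for the difference between tissues, 0 to 1 members in liver, and 0 to 1 genes of the 8 other lists in liver. In liver the count was 83 without treated 5_2, where Jun and 1 list gene, Socs3, were called, and 0 without treated 5_3 or vehicle 2_3. In muscle the 1 came without vehicle 6_1. The difference between tissues gave 2 without treated 4_5, 5_1 or 5_2 or vehicle 2_4 or 6_1, and 0 without treated 5_3, 5_4 or 5_5.

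Differences near 0 changed sign. Ier2 in muscle was at 0.0196 with libraries scaled to totals, and Nr4a3 in muscle at −0.00116 with a pseudocount of 0.1 and −0.0118 under voom. With each library left out in turn, the differences in muscle ran from −0.118 to 0.295 for Atf3, from −0.151 to 0.0799 for Ier2, from −0.134 to 0.00792 for Jun and from −0.171 to 0.155 for Nr4a3. The tissue differences ran from −0.417 to 0.0721 for Atf3, from −0.00486 to 0.489 for Egr1 and from −0.152 to 0.357 for Fos. The differences in spread ran in muscle from −0.23 to 0.0171 (Atf3), −0.0355 to 0.327 (Egr1), −0.23 to 0.173 (Fos), −0.0328 to 0.0964 (Jun) and −0.0676 to 0.22 (Nr4a3), and in liver from −0.0842 to 0.244 (Fos), −0.0211 to 0.157 (Junb) and −0.0574 to 0.174 (Nr4a1). None of these passed the threshold in any setting.

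Liver and muscle libraries share numbers, but the labels do not say that a number is 1 mouse. Over 9436 genes the correlation of their deviations was −0.0782 to 0.447, above 0.1 for 7 of 12 numbers, and 7 of 12 correlated best with their own number. The fit with the number as a replicate block called 3 genes for the difference between tissues, against 1 without it, and 0 members in both.

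Depth limits Fosb in both tissues and Nr4a3 in liver, at 2 to 87 reads per library at 40 d. With 1 library per group, no value at 24 h has a replicate check.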
